A study of Caenorhabditis elegans with 3 samples.

Results

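Trimethylation of lysine 4 on histone H3 (H3K4me3) is laid down around the starts of transcribed genes by COMPASS-type methyltransferase complexes and is widely used as a mark of active promoters. In Caenorhabditis elegans many genes are trans-spliced or sit in operons, so that the annotated start of a gene is often not the place where transcription begins. The promoter peaks described here are the H3K4me3 peak intervals that the authors' tables class as promoter, taken once each even where an interval is listed with several genes. They were 384 of 639 peaks in the table of F14' and 40 of 95 peaks in the table of F11, or 424 of 734 in all.

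The mark was mapped by chromatin immunoprecipitation and sequencing in whole wild-type worms with an antibody against H3K4me3 (Abcam ab8580). F11 worms came from 11 generations of exposure to sulfamethoxazole (SMX), a sulfonamide antibiotic, with 6 days of exposure in each. F14' worms were raised without the drug as the first non-exposed progeny of that line; the labels number them as generation 14 with 11 exposed generations. Control worms were grown without SMX on nematode growth medium plates with K-medium, and the sources used here give neither their generation nor the SMX dose. All worms were fed Escherichia coli OP50 at 20 °C. Each group had 1 library, made from whole animals, so no difference has a replicate check, no p-value was computed, and intervals are exact 95% binomial intervals that cover counting error only. Each table was labelled as set against the control, whose own peaks were not analysed here; a start without a listed peak is therefore not shown to lack the mark. Fewer cells with the mark and less mark per cell cannot be told apart in whole animals. The sources used here do not give library depth. The promoter peaks held 38101 sequenced tags over 85.9 kb in F11 and 407249 tags over 745 kb in F14'.

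Promoter peaks made up 60.1% of the F14' peaks (384 of 639, interval 56.2 to 63.9%) and 42.1% of the F11 peaks (40 of 95, interval 32.0 to 52.7%). These shares also depend on how each table assigned genes, since 8 F11 peaks of another class overlapped an F14' promoter peak. All promoter peaks were centred within 2 kb of an assigned start on either side, and 0 peaks of another class were. The class is thus a distance rule and holds regions upstream of a gene, inside it and past its end alike. At its limit in F14', peaks at the cation pump gene catp-4 (centre 1992 bp downstream, 274 tags per kb) and at F36D3.4 (centred at -1997 bp, 295 tags per kb) were just inside. Peaks at Y38C9B.3 (-2012 bp, 286 tags per kb) and the chemoreceptor gene srxa-15 (2025 bp, 288 tags per kb) were just outside. In F11 the peaks at Y73B6A.1 (-1881 bp, 406 tags per kb) and the piRNA gene 21ur-5573 (-1891 bp, 314 tags per kb) were just inside, and those at clec-70 (-2086 bp, 287 tags per kb) and F47F6.4 (-2141 bp, 307 tags per kb) just outside. The peaks on each side of the limit were thus alike in tag density apart from Y73B6A.1. A negative distance means upstream of the start throughout.

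Taken as a whole, the F14' promoter peaks leaned to the gene side of the start. Of the 384, 160 were centred upstream (41.7%, interval 36.7 to 46.8%) and 224 at or past the start (58.3%). By summit instead of centre, 152 lay upstream (39.6%). Among the 255 other F14' peaks, 132 lay upstream of their assigned start (51.8%, interval 45.4 to 58.0%). In F11, 18 of 40 promoter peaks were centred upstream (45.0%, interval 29.3 to 61.5%), an interval that holds the F14' share. The lean in F14' was seen among the weaker peaks, by the caller's score (-10 times the log10 of its p). There 95 of the 265 promoter peaks with a score under 100 lay upstream (35.8%, interval 30.1 to 41.9%). Of those with a score of at least 100, 65 did (54.6%, interval 45.2 to 63.8%). Nor was the lean seen close to a start. Within 500 bp, 66 of 128 lay upstream (51.6%, interval 42.6 to 60.5%). Of the 256 farther away, 94 did (36.7%, interval 30.8 to 42.9%).

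The median distance of centre from start, whatever the side, was 818.5 bp in F14' (quartiles 317 and 1289 bp) and 1182 bp in F11 (quartiles 784 and 1628 bp). The F11 peaks each list 1 gene, while F14' peaks with several take the nearest. Over F14' peaks with 1 gene the median was 1021 bp, inside the 95% interval of the F11 median (884 to 1435 bp), so F14' peaks are not shown to lie nearer. Within 500 bp of a start lay 128 F14' promoter peaks (33.3%, interval 28.6 to 38.3%) and 6 F11 promoter peaks (15%, interval 5.71 to 29.8%), where an even spread over the 4 kb window would give 25%. The interval itself covered the start in 222 F14' peaks (57.8%) and 15 F11 peaks (37.5%). Of the 128 F14' peaks within 500 bp, 67 listed several genes and took the nearest start. The comparisons with F11 and with an even spread are therefore not like for like, and do not show crowding at the start. Of the F14' bins of 500 bp, that just upstream of the start held most peaks, 66, of which 39 listed several genes. The bin farthest upstream held fewest, 23, of which 1 listed several. In F11 the bin just upstream held 1 peak and the farthest upstream 8.

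**Figure D1:**
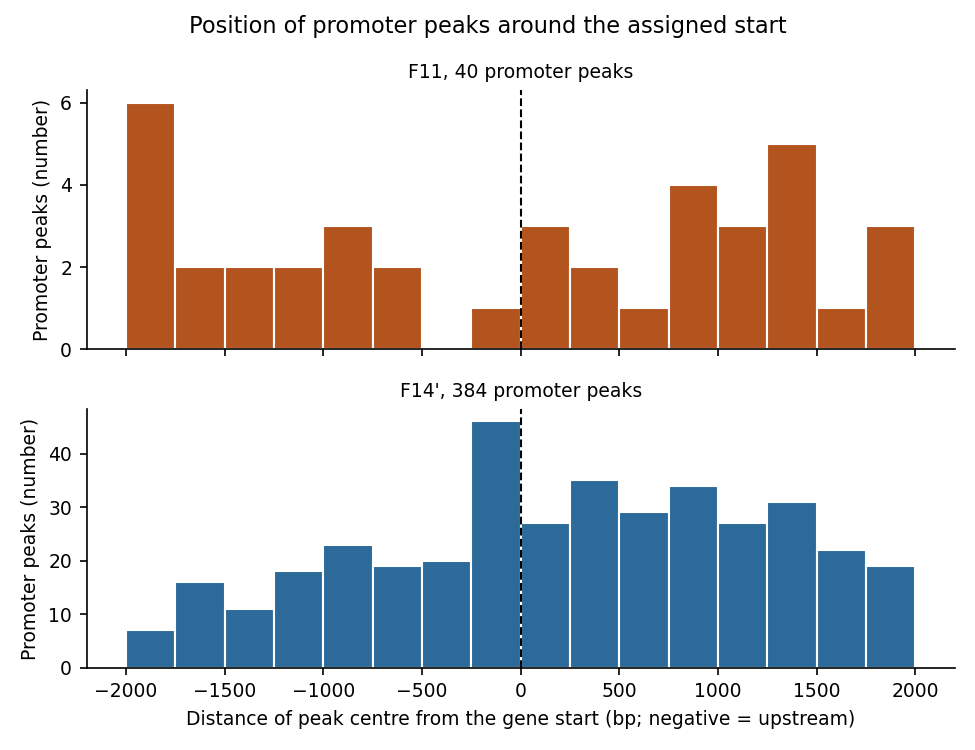
Number of promoter peaks (vertical axis) by distance of the peak centre from the assigned gene start in bp (horizontal axis, bins of 250 bp, negative is upstream, dashed line at the start), for F11 above and F14' below. The F14' counts are highest just upstream of the start and stay high on the gene side. Of the 384 F14' peaks, 102 list several genes and are placed by the nearest start. The 40 F11 peaks each list 1 gene, so the panels are not like for like.

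The 5 F14' peaks centred nearest to a start all listed several genes. The centre of 1 of them (chromosome V, 18174189 to 18176939, ce10; fold 2.4) lay at 0 bp from the start of C31G12.12. Next came the peak of F46F3.22 and ceh-27, a homeobox transcription factor gene (-6 bp, fold 2.14), and that of the long non-coding RNA gene linc-2 with pcf-11, which encodes a factor for cleaving and polyadenylating mRNA (-6 bp, fold 2.0). The peak of Y105E8A.41, K07E8.7 and frpr-14, a gene of the FMRFamide peptide receptor family, lay at 8 bp (fold 2.66), and that of Y48G1BM.6 with Y48G1BM.7 at -10 bp (fold 2.52). Their tag densities ran from 276.5 to 363 tags per kb. In F11 the nearest were at try-9, a trypsin-like protease gene (-130 bp, fold 2.2), the chemoreceptor gene srh-292 (168 bp, fold 2.24) and linc-113 (170 bp, fold 1.77).

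The intervals were often as long as the genes they touched. In F14' 112 promoter peaks (29.2%, interval 24.7 to 34.0%) covered a whole assigned gene, and 62 (16.1%) were centred past its end. Those counts were 5 and 6 of 40 in F11. The gene spans are those of the tables, and 5 F14' promoter peaks are listed with a span of 287769 bp or more, which was taken as given. The nearest gene was protein-coding in 273 F14' peaks and 29 F11 peaks. Next in F14' came 46 peaks nearest to a gene of other non-coding RNA, 31 nearest to a piRNA gene and 19 nearest to a pseudogene.

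The promoter peaks were broad and mostly shallow. Width had a median of 1689 bp in F14' (quartiles 1411 and 2175 bp, range 970 to 8033 bp) and 1812 bp in F11 (quartiles 1585 and 2243 bp, range 1118 to 9547 bp). Other peaks were wider, with medians of 2015 bp in F14' and 2111 bp in F11. Promoter peaks held a median of 295 tags per kb in F14' (quartiles 282 and 346) and 307 in F11 (quartiles 288 and 363), against 324 and 330 in the other peaks. Tag density thus changed little between the lower and upper quartile and then ran out in a long tail, to 6207 tags per kb in F14' and 4672 in F11. The authors' fold enrichment over the caller's background had medians of 2.25 in F14' and 1.995 in F11. The caller's score had a median of 57.8 in F14' (lowest 30.03) and 46.6 in F11 (lowest 30.21). Weaker regions are not listed, so the flat lower range of tag density is that of called peaks only.

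Among all peaks of F14', those with the most tags per kb were least often promoter peaks. With the peaks cut into 4 equal bins of tag density, the promoter share was 69.4%, 67.9% and 61.3% in the 3 lower bins and 41.9% in the top bin (interval 34.1 to 49.9%). The caller's score was 3100 or more in 23 of 384 promoter peaks (5.99%, interval 3.83 to 8.85%) and in 45 of 255 other peaks (17.6%, interval 13.2 to 22.9%). In F11 the share was 62.5% in the lowest bin and 37.5% in the top one (interval 18.8 to 59.4%), and the 4 intervals overlapped.

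**Figure D2:**
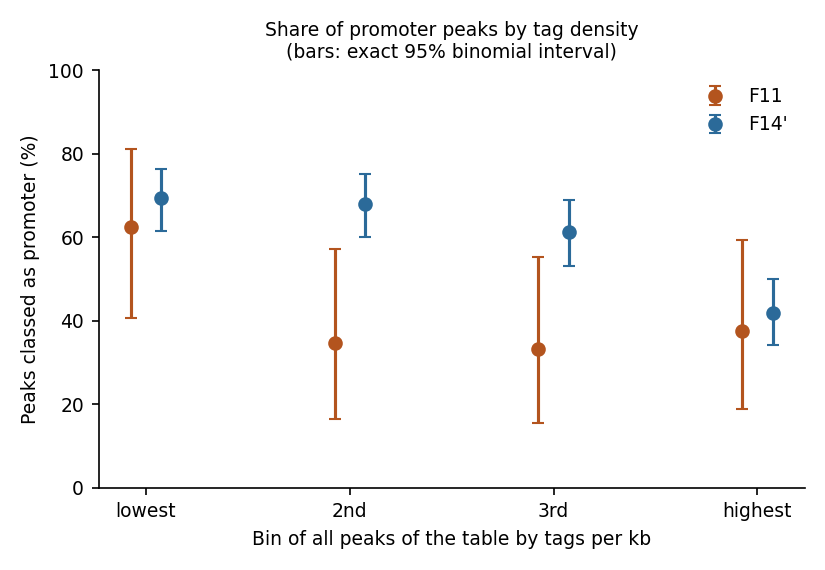
Percent of peaks classed as promoter (vertical axis) in each of 4 equal bins of all peaks of a table ordered by tags per kb (horizontal axis, lowest to highest), with exact 95% binomial intervals as bars. In F14' the share falls from 69.4% to 41.9% between the lowest and the highest bin, while the F11 intervals overlap one another.

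The densest peaks were less frequent near a start. Of the 128 F14' promoter peaks within 500 bp of a start, 10 were in that top bin of tag density (7.81%, interval 3.81 to 13.9%), and of the 256 farther away 57 were (22.3%, interval 17.3 to 27.9%). The median was 482 tags per kb, at a fold of 2.91, in the bin from 2000 to 1500 bp upstream. It was 288 tags per kb, at a fold of 2.17, in the first 500 bp of the gene side, and stayed between 291 and 295 in the 3 bins beyond, so that the median did not rise with distance on the gene side. The densest promoter peaks lay on the upstream side more often than the rest: 41 of the 67 in the top bin were upstream (61.2%, interval 48.5 to 72.9%), as were 37.5% of the other 317 (interval 32.2 to 43.1%). This split was chosen after the values were seen.

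**Figure D3:**
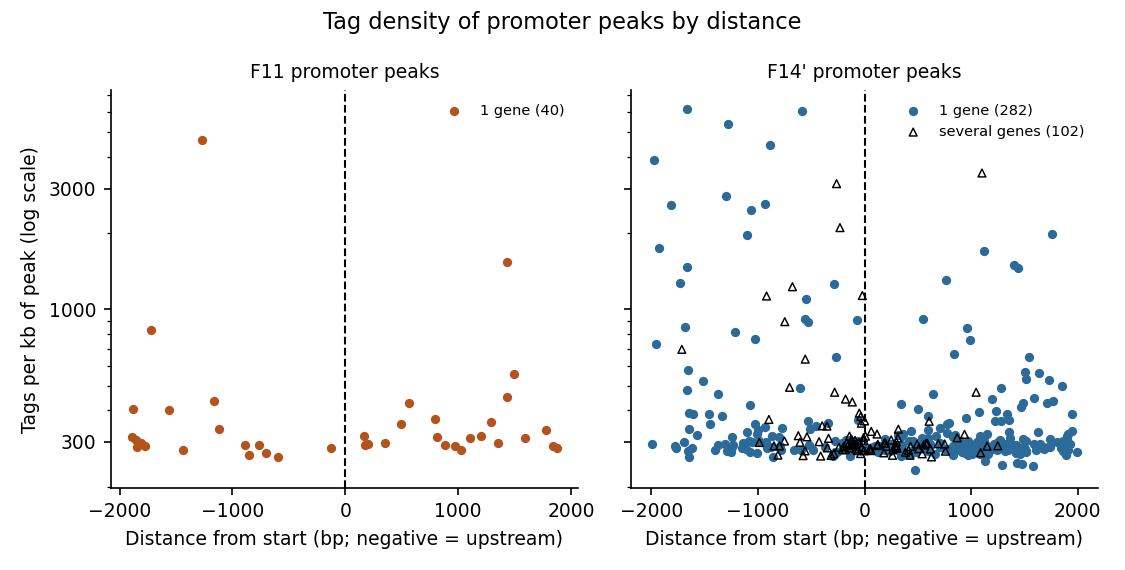
Tags per kb of each promoter peak (vertical axis, log scale) against distance of its centre from the start in bp (horizontal axis, negative is upstream), for F11 on the left and F14' on the right; filled circles are peaks with 1 gene and open triangles are peaks with several. Most F14' peaks lie in a flat band near 295 tags per kb, and the denser ones are mainly away from the start and more often upstream.

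The densest F14' promoter peak was at clec-9, a C-type lectin gene (chromosome V, 16706636 to 16709952; centred at -1669 bp), with 20587 tags, 6207 per kb and a fold of 7.49. The pseudogene Y64H9A.1 on chromosome X followed (-591 bp, 6061 tags per kb, fold 12.73). F52G2.3 (chromosome IV, 13548896 to 13550061; -1280 bp) had 5382 tags per kb and the highest fold of any promoter peak, 38.91. The peak at 21ur-8623, a gene of the small RNAs that bind Piwi proteins in the germline (piRNAs), had 4450 tags per kb (-883 bp), and that at Y34F4.1 had 3898 (-1977 bp). Of these 5, all were upstream and more than 500 bp away from the start. The peak listed with C26H9A.3 and T23B5.6 (1102 bp, 3455 tags per kb, fold 18.85) was past the end of C26H9A.3. The starts listed for these names are 0 bp apart. The peak shared by Y57G11C.1141, Y6B3B.14 and Y47G6A.34, at -263 bp with 3137 tags per kb, was the only one of the 8 densest within 500 bp of a start, and Y110A7A.2 (-1296 bp, 2794 tags per kb) came last.

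Among the other peaks with the highest folds, the piRNA cluster that holds 21ur-9229 lay near a start (-231 bp, fold 17.49). The rest lay farther away, at Y14H12A.1 (1438 bp, fold 18.39), T28H10.2 (1757 bp, fold 17.46), vha-19, which encodes a subunit of the vacuolar proton pump (-1934 bp, fold 17), and the microRNA gene mir-249 (-1101 bp, fold 16.24). A peak on chromosome X shared by C54G7.5, C54G7.6, C54G7.7, C54G7.10 and C54G7.17 had a fold of 16.21 at -749 bp. The widest were at cpt-3, a carnitine palmitoyl transferase gene (8033 bp, 1470 tags per kb), at C01A2.8 with ZK402.6 (6102 bp), at 21ur-4336 (5937 bp), at W02H5.16 (5648 bp) and at pot-3, a gene related to telomere-end binding proteins (5377 bp, 916 tags per kb). Their folds ran from 2.05 to 3.36, so width and fold picked out different peaks. In F11 the widest was at T26H5.8 (9547 bp, 555 tags per kb, fold 1.92).

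The summit, the point of most tags, lay near the middle of the interval in both tables. Measured along the gene from the upstream edge, its median position was 49.3% of the width in F14' (quartiles 35.0 and 63.5%) and 51.2% in F11 (quartiles 41.1 and 63.9%). With each interval cut into 3 equal pieces, the summit was in the central one in 221 of 384 F14' peaks (57.6%, interval 52.4 to 62.6%), in the upstream one in 85 and in the downstream one in 78. In F11 those counts were 26, 7 and 7 of 40. The summit was a median of 256 bp from the centre in F14' and 234.5 bp in F11. Neither table therefore showed a summit pushed to the side of the interval that faces the gene.

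**Figure D4:**
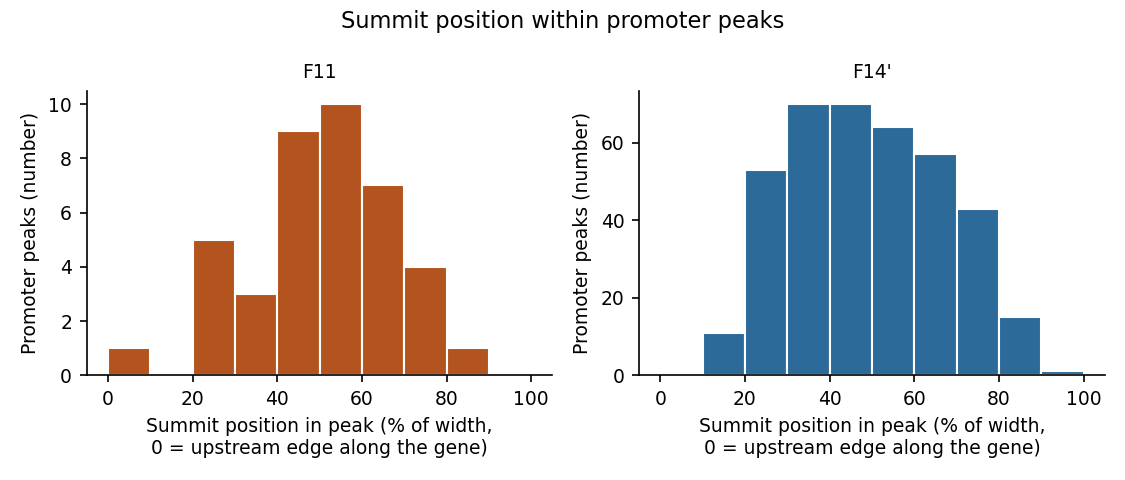
Number of promoter peaks (vertical axis) by position of the summit in the interval, in percent of its width from the upstream edge along the gene (horizontal axis, bins of 10%), for F11 on the left and F14' on the right. Both distributions are centred near the middle, with medians of 51.2% and 49.3%.

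Many F14' promoter peaks were shared by several genes. Of the 384, 102 listed more than 1 gene (26.6%, interval 22.2 to 31.3%), against 20 of 255 other peaks (7.84%). The genes listed at promoter peaks start at most 1997 bp away, and other peaks lie at least 2012 bp from their assigned start. This contrast therefore cannot be told apart from the rule of the class. With starts within 100 bp of each other counted as 1, the F14' promoter share with several was 24.2% (interval 20.0 to 28.8%). Of the 40 F11 promoter peaks 0 listed more than 1 gene, with a counting interval of up to 8.81%. Genes were not assigned alike in the tables. The F14' peak of C31G12.12 listed 11 genes, the nearest at 0 bp, while the F11 peak overlapping it was classed as upstream of linc-98 (-2793 bp). The F11 count of 0 therefore also depends on the assignment. Genes on both strands were listed at 72 of the F14' peaks. Sharing was frequent close to a start, at 67 of 128 peaks within 500 bp (52.3%) and 35 of 256 farther away (13.7%), but the distance is that of the nearest listed gene, so peaks with more genes are nearer by construction. Over the 282 F14' peaks with 1 gene, 104 were upstream (36.9%).

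Of the shared peaks, 53 listed a pair of genes. The pair was divergent, with start sites that point away from each other, in 25 of them, lay on the same strand in 25 and was convergent in 3. Some same-strand pairs, such as C01A2.8 with ZK402.6, had starts 0 bp apart, so the same listed start was counted under different names. The starts of divergent pairs were a median of 646 bp apart, and 14 of these 25 peaks covered both. The following examples were chosen after their values were seen. The proteasome ATPase gene rpt-4 and the NF-Y subunit gene nfyc-1 had starts 285 bp apart under a peak of 284 tags per kb (fold 2.23). The splicing factor gene rsp-3 and spin-4 had starts 420 bp apart (298 tags per kb, fold 2.25). The ribosomal protein gene rps-19 and hsr-9 had starts 483 bp apart (297 tags per kb, fold 2.19), and the proton pump gene vha-1 and sqv-3, which encodes an enzyme of proteoglycan synthesis, 945 bp (310 tags per kb, fold 2.44). All of these peaks covered both starts and were as shallow as the median promoter peak.

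Another 49 F14' peaks listed 3 genes or more, 27 of them on chromosome IV and 25 with at least 1 piRNA gene. The interval with most genes, 15, lay in the 5S ribosomal RNA array (chromosome V, 17114960 to 17116754) and listed 13 rrn-4 genes with ZK218.8 and ZK218.23. It had 1135 tags per kb and a fold of 3.52. A peak at 17428171 to 17429465 listed the same 13 rrn-4 genes with T27C5.10 (378 tags per kb, fold 4.27). The rrn-4 copies are near identical, so the assignment of tags among them and between these intervals is uncertain. The same names are listed at both places, so these gene counts are of listed names and not of distinct copies at each interval. Lists of 11 genes each belonged to the C31G12.12 peak described above and to a piRNA cluster that holds 21ur-9229 (chromosome IV, 15408857 to 15410268), which had 2970 tags, 2103 per kb and a fold of 17.49. C23H5.10 and 8 piRNA genes shared the next (IV, 15895222 to 15896643; fold 5.1).

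By chromosome, promoter and other peaks of F14' differed beyond their intervals on chromosome X. Chromosome X held 21 of 384 F14' promoter peaks (5.47%, interval 3.42 to 8.24%) and 36 of 255 other peaks (14.1%, interval 10.1 to 19%); in F11 it held 1 of 40 and 8 of 55. Chromosome IV held 89 F14' promoter peaks (23.2%) and 39 other peaks (15.3%). The piRNA gene clusters of this species lie there, and 40 of the 43 F14' promoter peaks that list a piRNA gene were on chromosome IV. Chromosome II held 15 of the 40 F11 promoter peaks (37.5%, interval 22.7 to 54.2%) and 13 of 55 other F11 peaks (23.6%, interval 13.2 to 37.0%), again with overlapping intervals.

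The F14' promoter peaks listed 615 genes, of which 608 were found among the reference genes, 1.3% of them (336 coding genes, 1.68%). The F11 peaks listed 40, or 0.0852% (29 coding genes, 0.145%). Gene groups are read against those shares. Of the housekeeping groups in F14', 4 of 78 ribosomal protein genes had a promoter peak (5.13%). They were rpl-1, now rpl-10a, at 356 tags per kb (fold 2.66), rpl-42 (fold 2.3), rpl-27 (fold 2.27) and rps-19 (fold 2.19). Only 1 of the 4 was the gene nearest to its peak. The nearest gene was Y71F9AL.19 in the case of rpl-1, egl-30 for rpl-27 and hsr-9 for rps-19. The other housekeeping counts were 2 of 33 proteasome genes (6.06%; rpt-2, fold 2.4, and rpt-4), 2 of 20 proton pump genes (10%; vha-19 and vha-1), and 2 of 21 constitutively expressed genes (9.52%), namely ubq-1 for polyubiquitin (fold 2.4) and hsp-1 for a heat shock cognate chaperone (fold 1.89). Translation factors and aminoacyl-tRNA synthetases had 0 of 38 and 0 of 34. Apart from vha-19 these peaks had folds between 1.89 and 2.66. The proteasome, proton pump and constitutively expressed genes named here were each nearest to their peak.

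Among chromatin genes, 3 of 72 histone genes had an F14' promoter peak (4.17%), with his-35 and his-41 under the same one (fold 1.89) and his-64 under another (fold 2.36). Of 17 genes of the H3K4 methylation machinery 2 did (11.8%, the highest share of the lists but on few genes), namely set-16, which encodes a methyltransferase of the MLL type (-625 bp, fold 2.83), and ash-2, a COMPASS subunit gene (-1181 bp, fold 2.57). Neither was the gene nearest to its peak, which was drr-2 in the first case and Y17G7B.20 in the second.

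Large families of genes for sensing and for responding to the surroundings had higher counts than the housekeeping lists, in longer lists. C-type lectins had a promoter peak at 15 of 264 genes in F14' (5.68%), of which 3 were upstream. They were led by clec-9, clec-135 (fold 5.76), clec-223 (fold 5.49) and clec-50 (fold 4.57). Chemoreceptors, the receptors of sensory neurons, had 40 of 1628 (2.46%) under 36 peaks, led by srh-246 (fold 10.65), sre-47 (fold 7.24, 2468 tags per kb), srz-32 (fold 4.63) and srv-21 (fold 3.63). F-box, MATH and BTB genes, which encode adaptors of ubiquitin ligases, had 12 of 505 (2.38%), led by fbxa-208 (fold 5.64). The next were fbxa-12 and fbxa-8, a pair under the same peak (fold 2.59), and fbxb-39 (fold 2.3). In F11 those families had 1 of 264 (clec-135, fold 4.63), 4 of 1628 and 2 of 505. The F11 chemoreceptors were srh-292, sra-20, srh-105 and srsx-1, at folds from 1.86 to 2.24, and the F-box genes were fbxb-5 (fold 2.02) and fbxb-54 (fold 1.65). These families hold near-identical copies, among which tags can be shared.

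Piwi-interacting RNA genes had 133 of 15363 in F14' (0.866%), all under 43 peaks, and 24 peaks listed piRNA genes alone. F11 had 3, namely 21ur-1442 (fold 2.47), 21ur-14095 (fold 2.0) and 21ur-5573 (fold 2.0). The other F14' lists gave 4 of 65 homeobox genes (6.15%; ceh-27, ceh-37, ceh-82 and ceh-13, at folds from 1.74 to 2.14), 4 of 283 nuclear hormone receptors (1.41%; nhr-141, fold 3.1, then nhr-233, nhr-210 and nhr-47), 2 of 159 collagens (1.26%; col-52, fold 2.81, and Y69H2.14, now col-42, fold 2.47), and 2 of 206 detoxification genes (0.971%; ugt-24, fold 7.35, and pgp-14, fold 1.89). By the nearest gene alone, the F14' counts were 31 piRNA genes, 2 homeobox genes, 3 nuclear hormone receptors, 1 detoxification gene and still 2 collagens. Of the tissue markers, 2 of 48 sperm genes had an F14' promoter peak (4.17%). They were ssp-36 (fold 7.27) and msp-113 (fold 5.23), both centred more than 1 kb into or past the gene. The markers of germline, muscle, intestine, neurons and hypodermis had 0 of 16, 10, 12, 15 and 7. In F11 the tissue marker lists and the housekeeping, histone, H3K4 machinery, collagen, homeobox, nuclear hormone receptor and detoxification lists had 0.

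Of the 40 F11 promoter peaks, 19 overlapped an F14' promoter peak by at least 1 bp (47.5%, interval 31.5 to 63.9%), which was 4.95% of the 384. At all 19 the tables assigned the same gene and the same side. The tables share the control, and all 40 F11 promoter peaks had a false discovery rate of 100% in the authors' deposited table. Fold and tag density had medians of 2.27 and 361 tags per kb over the 19 overlapping F11 peaks, and of 1.86 and 291 over the 21 others. Where only the F11 peaks of a score of at least 100 were taken, 7 of 8 overlapped (87.5%).

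The tag densities of overlapping peaks were alike, with a median ratio of F14' to F11 of 0.968 (range 0.847 to 1.53), and 7 of the 19 were higher in F14'. The F14' intervals were wider at 16 of 19 and held more tags at 15, so that the median ratio of tags per peak was 1.21. Neither ratio is scaled to library depth. A pair needed a called peak in both tables, so regions that fell below the call in either are not included. Fold was higher in F14' at 12 of 19. At F52G2.3 the F11 peak had 5247 tags, 4672 per kb and a fold of 5.78, and the F14' peak 6275 tags, 5382 per kb and a fold of 38.91. The tags thus differed far less than the fold, which also depends on the caller's background. The score of this peak was 47.09 in F11 and 3100 in F14'. At Y14H12A.1 the F11 peak had 1719 tags (1538 per kb, fold 8.46) and the F14' peak 1734 (1461 per kb, fold 18.39), with summits 6 bp apart.

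At irld-1, a gene of the insulin and EGF receptor-like L domain family, there were 3501 tags in F11 and 5623 in F14' (827 and 1268 per kb), the highest ratio of the 19 at 1.53. Y54B9A.1 went from 449 to 534 tags per kb, clec-135 from 402 to 521, and gmeb-3 from 334 to 500. W07G1.1 (436 and 419), Y43F8C.5 (428 and 404), Y73B6A.1 (406 and 353) and Y9D1A.1 (369 and 357) were higher per kb in F11. Age-1, the gene of the phosphatidylinositol 3-kinase of insulin signalling, had 378 tags in F11 and 339 in F14' at about 1.1 kb upstream (-1120 and -1089 bp; folds 3.53 and 2.68). Centres moved by a median of 89 bp between the tables and summits by 311 bp, with 6 of 19 summits within 50 bp of each other.

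**Figure D5:**
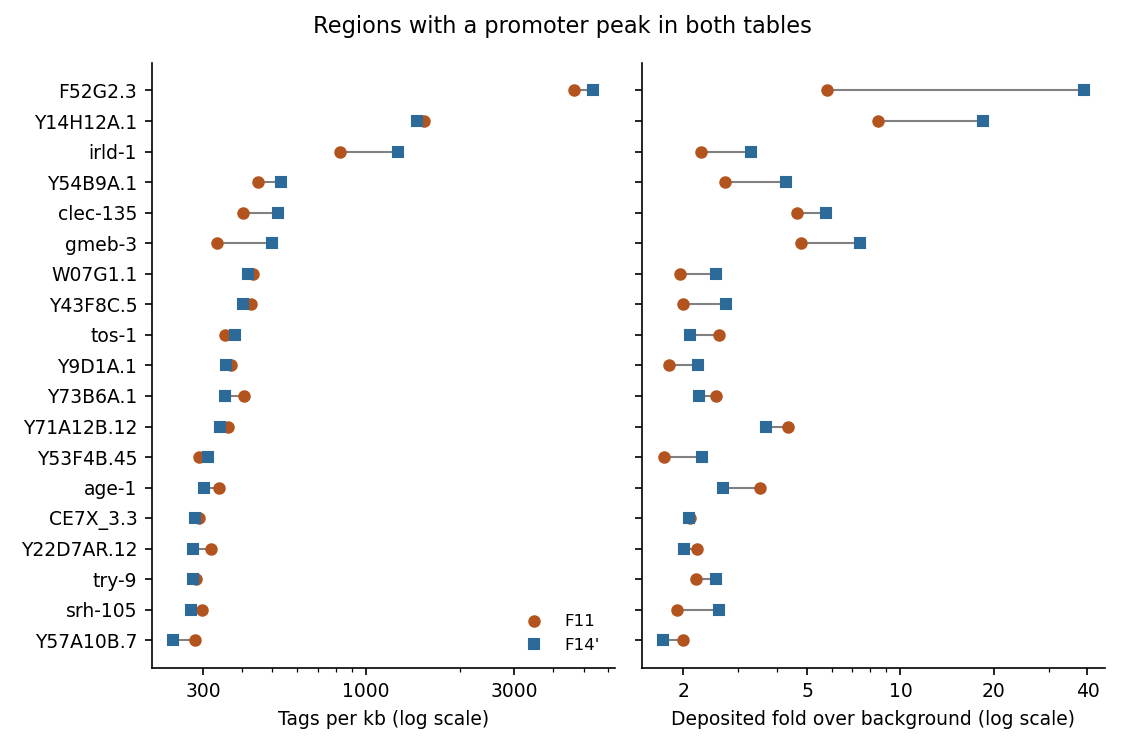
Tags per kb (left) and the authors' fold over background (right), both on log axes, for the 19 regions with a promoter peak in both tables, named by the assigned gene; circles are F11, squares are F14', and grey lines join them. Tags per kb nearly coincide at most regions, while F52G2.3 and Y14H12A.1 differ more in fold than in tags.

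A further 8 F11 peaks of another class overlapped an F14' promoter peak, and 0 F11 promoter peaks overlapped an F14' peak of another class. The assigned gene differed at all of these but K10B4.1. The srh-245 region of F11 was listed with srh-246 in F14', the linc-98 region with C31G12.12, and the nlp-38 region, 4049 bp from that neuropeptide gene, with C01A2.8 and ZK402.6 at -1715 bp.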

How the data were processed

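H3K4me3 ChIP-seq libraries of 3 groups, 1 each, gave 2 annotated peak tables used here (F11 and F14'). Build ce10, the aligner Bowtie2 2.1.0 and MACS 1.4.0rc2 are named in the submitters' processing notes. Per the file headers, each peak carries a count of tags, a fold enrichment over background, a score equal to -10 times the log10 of p, and, in F11, the authors' false discovery rate in percent; the deposited counts are not normalized. The sources used here do not give library depth, so tags are compared between tables only side by side.

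Rows were collapsed to unique intervals, which kept 40 promoter peaks from 41 rows and 384 from 710. Of peaks with several genes, the smallest distance was used. Tags per kb, position along the gene's strand, and overlaps of at least 1 bp were computed with Python 3.11.15, pandas 2.3.3, numpy 2.4.6 and scipy 1.17.1, after the code was tested on simulated data. The deposited distance equalled that of the centre within 0.5 bp. Gene names were matched to a RefSeq table of another build (WBcel235; 41 of 41 and 665 of 672 accessions), used for names and biotypes only. For 3 blank symbols the name came from the other table or from RefSeq. Shares carry exact Clopper-Pearson 95% intervals. No test was made, since each group has 1 library.

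The members and the 22 gene lists were chosen with earlier results of these data known. Genes named are the extremes of tag density, fold, width, distance and genes per peak, the 10 leading pairs present in both tables, up to 4 members per list and table by fold, and the 2 peaks on each side of the class limit. Other genes were picked for naming once their values were known. The alternatives were stricter scores and folds, a distance of 1 kb, other overlap rules, summits for centres, and other ways to count shared peaks. Promoter sequences were not used here.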

Additional observations from a re-analysis of the deposited data

How the results depend on the processing

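Of the main values under alternative settings, 74 stayed within their counting interval or within 1.5 times the main count and 29 moved. With a score of at least 100, 20% of the F11 and 31.0% of the F14' promoter peaks were left, and the promoter share was 29.6% and 49.8%. The F14' upstream share was 54.6% (interval 45.2 to 63.8%) against the deposited 41.7%. The lean to the gene side was thus no longer seen, and since the interval holds 50%, a lean upstream is not shown. The median distance was 1644 and 957 bp, the F14' width 2131 bp, the tags per kb 381 and 443, the F11 summit position 64.8%, the overlap 87.5%, and the genes of all lists 2 and 79. With a fold of at least 2, 50% of the F11 promoter peaks were left, with an F11 width of 1635 bp, 303 tags per kb in F14' and an overlap of 65.0%. Within 1 kb of a start lay 40% and 60.4% of the numbers of promoter peaks, giving shares of 16.8% and 36.3%, median distances of 650.0 and 425.5 bp, an F14' width of 1593 bp and 41.4% of F14' peaks with several genes. With 1-gene peaks alone the F14' distance was 1021 bp, tags per peak gave a ratio of 1.21, and the nearest gene alone left 109 F14' list genes. Within 1 kb the F14' upstream share was 46.1% (interval 39.6 to 52.8%). With every row of peak and gene counted it was 46.2% (interval 42.3 to 50.2%). These intervals also hold 50%, so the lean is not shown there. It stayed by summit (39.6%, interval 34.7 to 44.7%), over 1-gene peaks (36.9%, interval 31.2 to 42.8%) and at a fold of at least 2 (43.5%, interval 37.8 to 49.3%). The cause of such differences was not tested. Among single gene lists, 21 values moved and 67 did not. Taking every peak within 2 kb gave the same peaks as the class. No paired analysis was possible because each group has 1 library. Leaving out a replicate was not possible for the same reason. The F11 shares rest on 40 peaks, and the F11 medians at a score of at least 100 on 8. Their intervals were 28.6 to 85.4% for the summit position, 497 to 1891 bp for the distance and 314 to 1538 for tags per kb. The summit interval holds the main 51.2%, so a shift of the summit is not shown.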
